A study of Mus musculus with 6 samples.

Results

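The genes described here encode enzymes that use α-ketoglutarate as a co-substrate, other than the TET enzymes. They are 10 genes, chosen by name for what their products do. Of these, 8 are among the 9195 gene spans that could be tested in the part of the table used. The 6 histone demethylases among them are Kdm2a, Kdm3b, Jmjd1c, Kdm5b, Kdm6b and Phf2. Hif1an and Egln3 encode oxygen-sensing hydroxylases, Alkbh5 an RNA demethylase and P4ha1 a collagen prolyl hydroxylase. Reduced representation bisulfite sequencing, a method that reads CpG-rich fragments, was applied to mouse intestinal organoids of the genotype Apc Min, and gave DNA methylation levels. Apc Min is a truncating allele of Apc, a negative regulator of Wnt signalling. There were 3 control libraries and 3 libraries of organoids given DM-aKG, which the title of the series ties to α-ketoglutarate. Medium low in glutamine was used in both groups, and neither a dose nor a treatment time is stated in the labels. The design text calls the libraries biological replicates, and does not say whether they came from separate mice. A methylation level is not an expression level, so the labelled cell type could not be checked against its markers.

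These enzymes split oxygen with the help of iron and turn α-ketoglutarate into succinate while they hydroxylate their substrate. On histones or RNA the hydroxylated methyl group falls off, whereas on hypoxia-inducible factor and on collagen the hydroxyl group stays. Because α-ketoglutarate is consumed in the reaction, its supply is known to bear on their activity. The data here are the DNA methylation of the genes that encode them, and not the activity of the enzymes. The comparison asks how that methylation differed between DM-aKG and control organoids.

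No measured position fell in the promoter windows at hand for these genes. RefSeq promoter windows (GRCm38.p6, 250 bases before to 50 after the start of transcription) were at hand for 7 of the genes, in 8 windows, since Jmjd1c has 2. There was none for Kdm2a, Kdm3b and Kdm6b. The strand of these genes was not used, so the lower end of their spans may be either end of the gene. Both Jmjd1c windows lie inside its span (starts at 67127088 and 67185750, span from 67096351), so the lower end of that span was not covered. None of the 8 held a position of the table. Only 4.32% of all 18212 windows in the same rows did, so an empty window is usual for any gene. The nearest measured position lay between 5205 and 31272 bases from these starts, against a median of 5746 bases over all windows. The 8 windows held 13 to 63 CpGs, and the median over all windows was 7. Windows with at least 13 CpGs held a measured position in 3.84% of 7005 cases. For them the median distance from the start to a measured position was 3923 bases, less than from any of the 8 starts. Values from 1 to 39% do not occur in the table and no position without any value is listed. An unread promoter and a promoter under 40% in every library therefore cannot be told apart.

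The 250 bases before the start are shown for Egln3 and Alkbh5, which had 1 and 0 complete sites (positions with a value in all 6 libraries), and for Phf2, which had the most CpGs. CpGs are in capitals, and each sequence runs 5′ to 3′ on the strand of its gene.
Egln3, chr12:54203875-54204124, minus strand: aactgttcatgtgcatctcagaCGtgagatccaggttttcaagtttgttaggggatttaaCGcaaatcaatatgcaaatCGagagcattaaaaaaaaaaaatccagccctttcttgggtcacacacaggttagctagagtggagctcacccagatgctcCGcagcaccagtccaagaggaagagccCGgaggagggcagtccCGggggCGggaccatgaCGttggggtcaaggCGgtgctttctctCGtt
Alkbh5, chr11:60537433-60537682, plus strand: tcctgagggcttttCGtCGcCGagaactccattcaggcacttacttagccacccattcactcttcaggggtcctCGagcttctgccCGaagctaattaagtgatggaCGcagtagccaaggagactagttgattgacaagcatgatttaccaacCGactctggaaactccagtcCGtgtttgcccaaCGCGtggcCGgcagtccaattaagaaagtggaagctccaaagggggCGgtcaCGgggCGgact
Phf2, chr13:48870886-48871135, minus strand: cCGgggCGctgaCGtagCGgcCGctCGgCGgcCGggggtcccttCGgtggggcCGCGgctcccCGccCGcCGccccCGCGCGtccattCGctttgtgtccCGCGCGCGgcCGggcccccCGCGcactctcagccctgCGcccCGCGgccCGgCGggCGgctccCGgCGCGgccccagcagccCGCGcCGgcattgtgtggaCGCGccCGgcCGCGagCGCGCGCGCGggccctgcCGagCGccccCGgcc

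These stretches held 10 CpGs in Egln3, 14 in Alkbh5 and 50 in Phf2. The letters CCGG, a cut site commonly used to make such libraries, were found in 7 of the 8 windows of 300 bases and in 53.4% of all windows. ACGTG, a core of hypoxia response elements, was searched on both strands, so that the palindrome CACGTG counts as 2 matches. It was found in 3 of the 8 windows, those of Kdm5b, P4ha1 and Egln3, and in 19.9% of all windows. Both motifs contain CG and the 8 windows are richer in CpGs than the median window. No share among equally CpG-rich windows is given, so neither motif can be called more frequent here. The labels do not name the enzyme used for the libraries.

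Within 1000 bases of their spans the genes held 477 positions, of which 362 were complete. The sites were unevenly spread, with 164 in Kdm6b, 76 in Phf2, 61 in Kdm2a, 26 in Kdm3b and 25 in Jmjd1c. Kdm5b, Hif1an and P4ha1 had 3 each, Egln3 had 1 and Alkbh5 had no position at all. The minimum of 3 sites left 8 genes for the test. Most sites were highly methylated: 231 of the 362 (63.8%) had a mean of 90% or more, against 58.9% of the 272327 complete sites of the table. The smallest value listed is 40%, so a complete site is at 40% or more in all 6 libraries. A site below that in any library is left out of these levels and of the tests below. Between 87.6% and 91.0% of the 477 positions were valued in any given library. No read depth comes with the levels, so it is unknown.

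No gene of the set passed the test between DM-aKG and control organoids. In limma's test, adjusted by Benjamini-Hochberg, 0 of the 8 had an adjusted p under 0.05, as had 0% of all 9195 gene spans, and the lowest adjusted p among the 8 was 0.765. None of the 8 had an unadjusted p under 0.05, against 574 of all spans. P4ha1, Kdm3b and Phf2 had a higher mean with DM-aKG and the other 5 genes a lower one, with a median difference of -0.81 percentage points. Omitting control replicate 1, 2 or 3 made the median -0.22, -0.46 or -0.27. Omitting treated replicate 1, 2 or 3 made it -0.53, -0.20 or -0.68. Over all spans the median was 0.73 points, and 66.4% were higher. With the means of the libraries equalised, which takes out a general difference of 1.05 points, 1 gene was higher and 7 were lower, and Kdm3b and Phf2 changed sign. With each 0 of the table counted as a level, the median became 0.68 points, 6 genes lay higher and 2 lower, and Kdm5b, Kdm6b and Jmjd1c changed sign. With each library averaged over the positions it had, the median became -0.08 points and the genes divided into 4 higher and 4 lower. In none of the 8 genes did all 3 DM-aKG libraries lie on one side of all 3 controls, which occurred upwards in 11.3% and downwards in 2.53% of all spans.

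**Figure D1:**
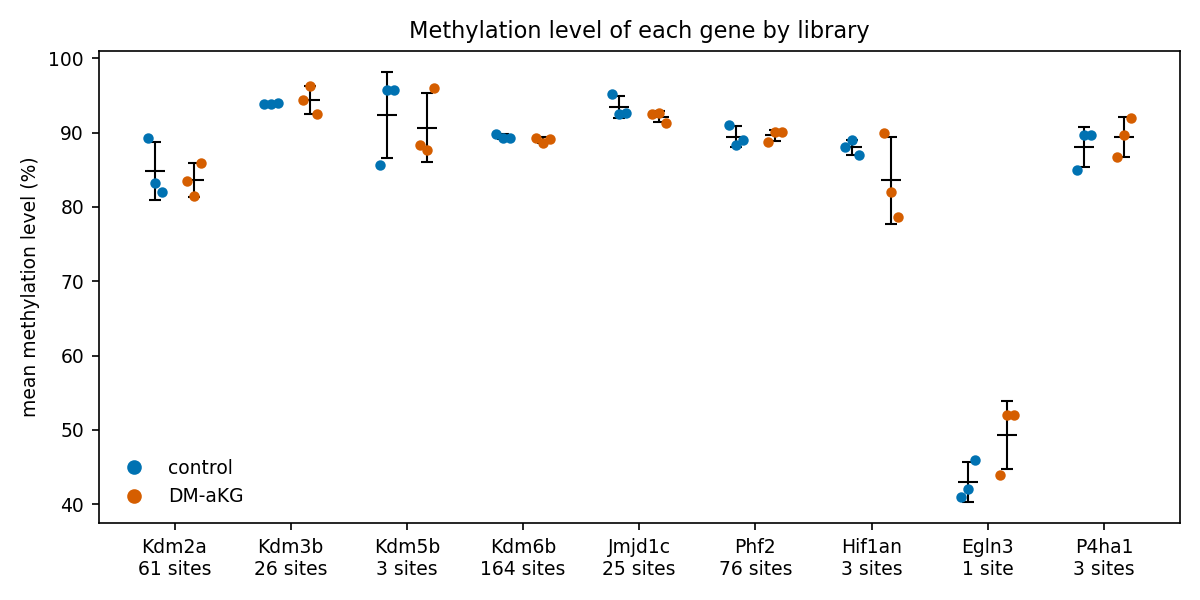
Methylation averaged over sites (% on the vertical axis, which does not start at 0) for the complete sites of each gene (horizontal axis, with the number of sites), drawn as 1 point per library, with group means and their SD (n = 3) as bars. Control and DM-aKG points overlap in all 9 genes shown; the 8 tested genes lie between 78.7% and 96.2%, and Egln3, with 1 site, between 41% and 52%.

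**Figure D2:**
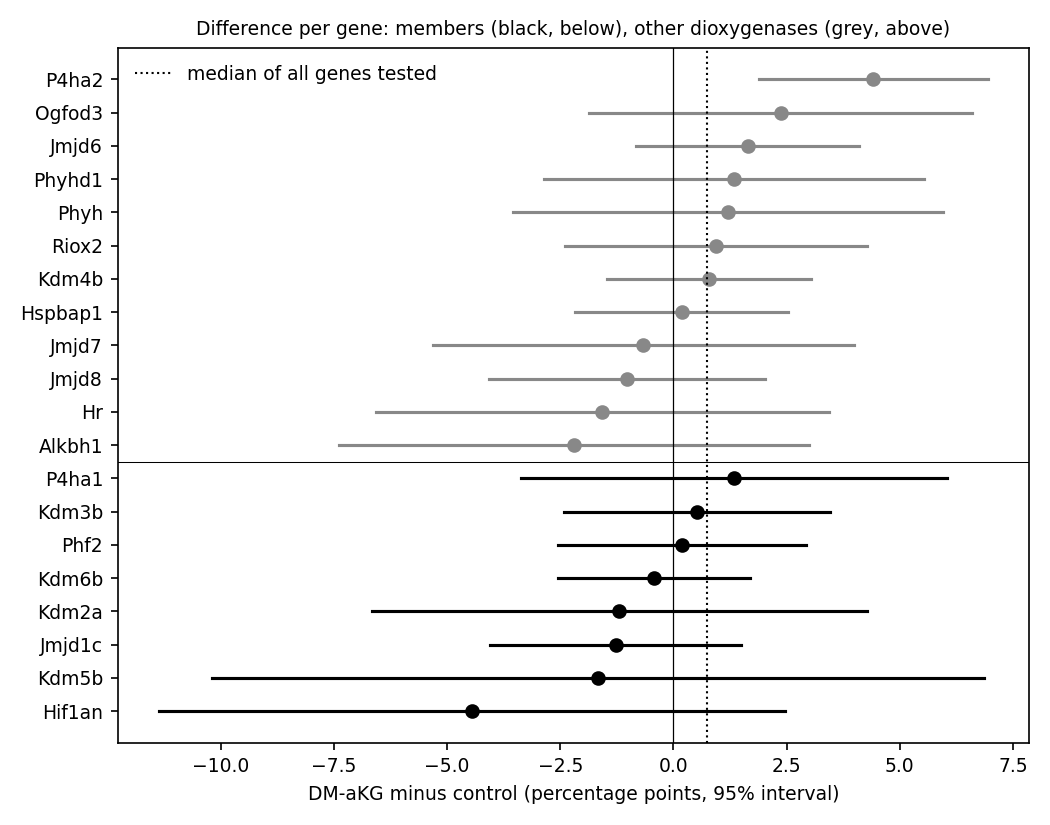
Difference between DM-aKG and control (percentage points, horizontal axis) with its 95% interval for the 8 tested genes (black) and 12 other α-ketoglutarate dioxygenase genes (grey). All 8 black intervals span 0, from 2.13 points on either side in Kdm6b to 8.52 in Kdm5b, and the dotted line marks the median of all spans, 0.73.

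Kdm6b encodes a demethylase of trimethylated lysine 27 of histone H3, a mark of polycomb repression. Its mean level was 89.8%, 89.2% and 89.2% in control replicates 1, 2 and 3, and 89.3%, 88.6% and 89.1% with DM-aKG. The groups overlapped and each spread over less than 1 point. The means were 89.4% ± 0.356 (SD, n = 3) and 89.0% ± 0.358, a difference of -0.43 points (95% interval -2.55 to 1.70; limma adjusted p = 0.918). It was -0.22 points without control replicate 1 or without DM-aKG replicate 2, and -0.08 without the flanks. With 164 sites it had the narrowest interval of the 8 genes. All its sites lay from -981 to 9318 bases of the lower end of the span (chr11:69398508-69420367), and none in the rest of the span of 21.9 kb. Of the 164 sites 29 are within 1000 bases of the neighbouring gene Tmem88 as well, 10 of them inside its span, and 3 are within 1000 bases of Naa38.

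Levels differed more along Kdm6b than between groups. Runs of sites no more than 200 bases apart, with at least 3 sites, gave 12 averages for the gene. A run starts at -298 bases, outside the lower end of the span. The strand of Kdm6b was not used, so this run may be upstream or downstream of the gene. It was at 86.5%, 77.9% and 78.0% in the controls and at 77.4%, 77.4% and 75.5% with DM-aKG. All 3 treated libraries were thus lower, with a difference of -4.03 points, or -1.20 without control replicate 1. Runs starting at 4582, 5701 and 7845 bases also had all DM-aKG libraries below all controls, with differences of -3.44, -2.64 and -2.59 points. Without DM-aKG replicate 3 the first was -2.22 and the last -0.86. In the last, DM-aKG replicate 2 (93.31%) lay just under the lowest control (93.38%). The limma adjusted p of these lower runs, with that at -298 bases, was 0.824 to 0.833. Of all 32136 runs in the table, 2.58% had all treated libraries lower and 8.55% higher. The run at 8927 bases, with 20 sites, went the other way, at 75.2%, 79.0% and 76.0% in the controls and 81.2%, 79.9% and 78.9% with DM-aKG. There the highest control lay just above the lowest treated library, and the difference was 3.28 points (95% interval -0.55 to 7.11; limma adjusted p = 0.824).

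**Figure D3:**
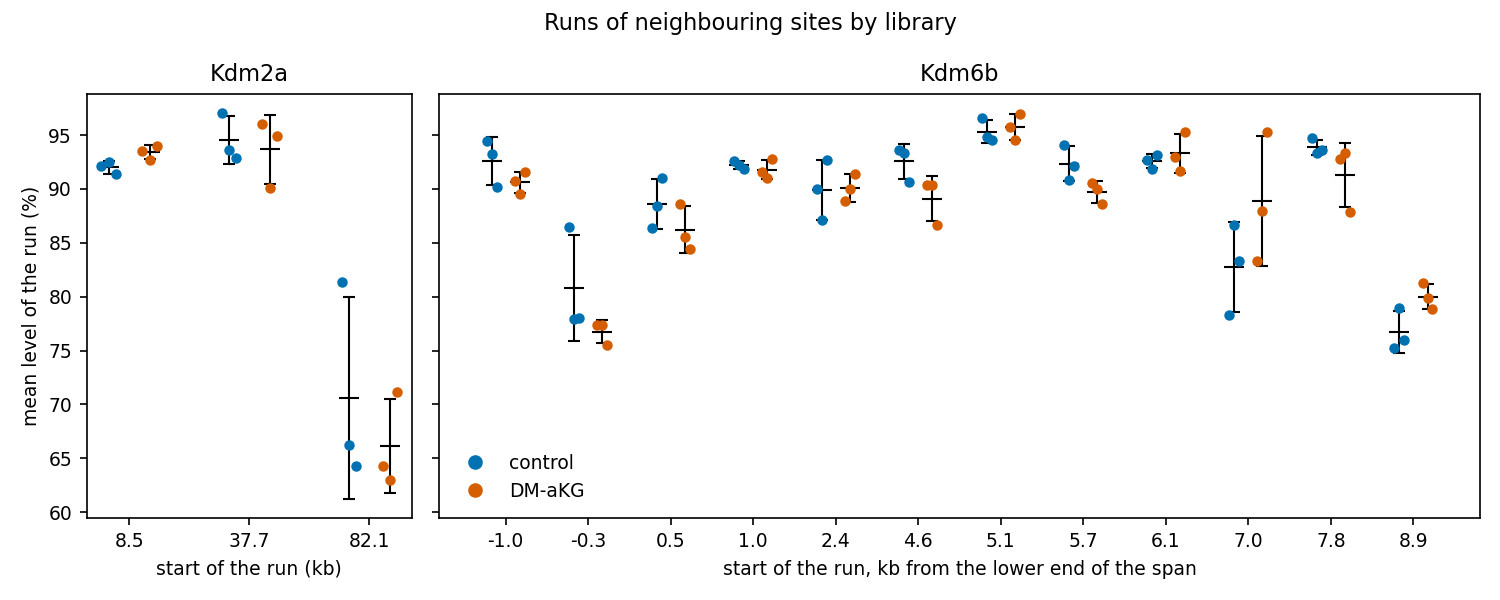
Average level in % (vertical axis, which does not start at 0) for each run of neighbouring sites in Kdm2a (left) and Kdm6b (right), by where the run starts (kb from the lower end of the span, horizontal axis), with points for libraries and bars for mean and SD (n = 3). In Kdm6b the runs range from about 75.2% to 97.0%; in the last run of Kdm2a control replicate 1 stands at 81.4% and the other 5 libraries at 63.0% to 71.1%.

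Kdm2a encodes a demethylase of lysine 36 of histone H3 that binds unmethylated CpG islands through a zinc finger. Its mean level was 89.3%, 83.3% and 81.9% in the controls and 83.5%, 81.4% and 86.0% with DM-aKG. Control replicate 1 was the highest library, and the other 5 overlapped. The difference was -1.20 points (84.8% ± 3.93 and 83.6% ± 2.26, SD, n = 3; limma adjusted p = 0.890), and 1.04 points without control replicate 1. Its sites fell into 3 runs within chr19:4316144-4398721.

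The 3 runs of Kdm2a differed in level. The run of 22 sites that ends 191 bases from the upper end of the span was at 81.4%, 66.2% and 64.3% in the controls and 64.3%, 63.0% and 71.1% with DM-aKG. It was the least methylated run of any gene here, with a difference of -4.50 points that became 0.89 without control replicate 1. All 22 sites also lie in the span of 9430078G10Rik, a protein-coding gene, and cannot be given to either gene. The strand of Kdm2a was not used, so this run may lie near its 5′ or its 3′ end. The run of 26 sites starting 8490 bases into the span was at 92.1%, 92.5% and 91.4% in the controls and 93.5%, 92.7% and 94.0% with DM-aKG. All 3 treated libraries were higher there, by 1.42 points (95% interval -1.59 to 4.44; limma adjusted p = 0.856). Such a rise without overlap was seen in 8.55% of all runs. The middle run, of 13 sites, had overlapping groups (94.5% ± 2.23 and 93.7% ± 3.18). Control replicate 1 had a value at 92.3% of the 91 positions of Kdm2a and the other libraries at 80.2% to 85.7%; its part in the result was not tested.

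**Figure D4:**
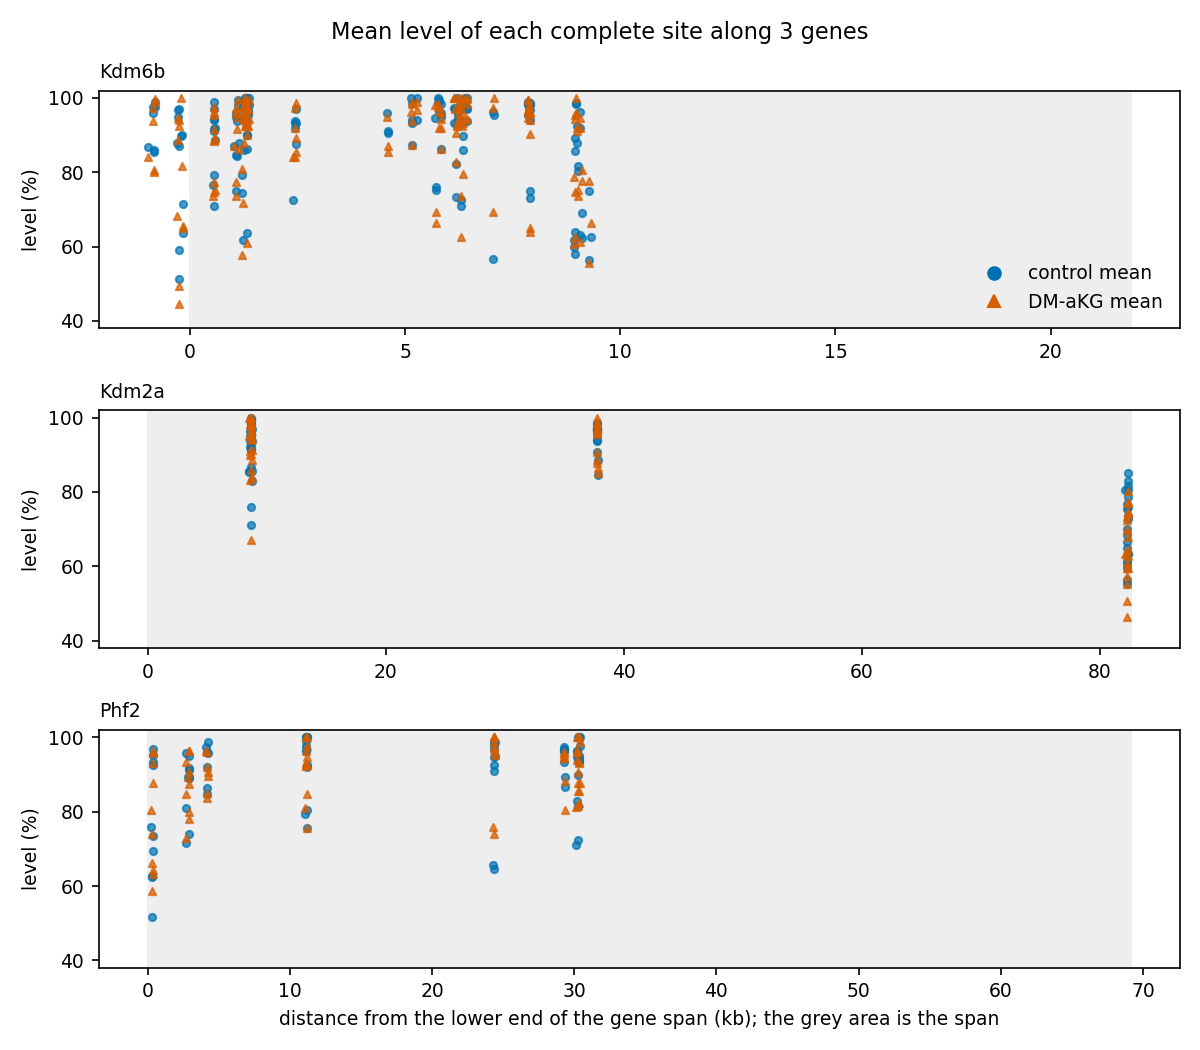
Average level in % (vertical axis, which does not start at 0) for every complete site in the control (circles) and DM-aKG (triangles) libraries along Kdm6b, Kdm2a and Phf2 (horizontal axis, kb from the lower end of the span; grey area, the span). Sites come in separate runs, most above 90%. Levels are lower just outside the lower end of the span and at the upper end of the sampled stretch in Kdm6b. They are also lower at the upper end of Kdm2a and at the lower end of Phf2.

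Phf2 encodes a demethylase of dimethylated lysine 9 of histone H3. Its mean level was 91.0%, 88.3% and 89.0% in the controls and 88.7%, 90.1% and 90.04% with DM-aKG. The groups overlapped, at 89.4% ± 1.42 and 89.6% ± 0.768 (SD, n = 3), a difference of 0.19 points (95% interval -2.54 to 2.92; limma adjusted p = 0.975). The gene lies on the minus strand of chr13:48801750-48870885. Within its span and flanks the nearest measured position was 38742 bases downstream of the start of transcription. A position outside them was nearer, 31272 bases from that start. The run of 10 sites closest to the 3′ end was the least methylated, at 77.4% ± 1.61 and 78.0% ± 2.82. A run of 10 sites 24269 bases from that end was at 91.9%, 89.8% and 87.1% in the controls and 93.2%, 92.6% and 94.4% with DM-aKG. All treated libraries were higher there, by 3.80 points (95% interval -0.25 to 7.85; limma adjusted p = 0.824). In a run of 7 sites 4122 bases from that end all treated libraries were lower, with a difference of -2.48 points (limma adjusted p = 0.824). Over all runs, 8.55% were apart upwards and 2.58% downwards.

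Jmjd1c and Kdm3b encode related proteins of the family that acts on lysine 9 of histone H3. Jmjd1c was at 95.2%, 92.5% and 92.6% in the controls and 92.5%, 92.6% and 91.3% with DM-aKG. Control replicate 1 was above the rest and the others overlapped. The difference was -1.28 points (95% interval -4.05 to 1.49; limma adjusted p = 0.765), and -0.41 points without control replicate 1. Of its 25 sites 17 were lower, 7 higher and 1 equal. Kdm3b was at 93.8%, 93.8% and 93.9% in the controls, and at 94.4%, 96.2% and 92.5% with DM-aKG. The controls lay close together (SD 0.0769, n = 3), with treated libraries on both sides of them. The difference was 0.53 points (95% interval -2.42 to 3.47; limma adjusted p = 0.875). It was -0.40 points without DM-aKG replicate 2. All 4 runs of Jmjd1c had overlapping groups. In Kdm3b the run of 3 sites nearest the upper end of the span was at 97%, 95.7% and 95% in the controls and 98.7%, 98.0% and 97.3% with DM-aKG. It was higher by 2.11 points (limma adjusted p = 0.827), without overlap, as were 8.55% of all runs.

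Kdm5b encodes a demethylase of trimethylated lysine 4 of histone H3, a mark of active promoters. Its 3 sites lie within 25 bases of each other, about 54 kb inside the gene (chr1:134560178-134632878, plus strand). Their mean was 85.7%, 95.7% and 95.7% in the controls and 88.3%, 87.7% and 96.0% with DM-aKG. The lowest library was a control and the highest a treated one. The difference was -1.67 points with a 95% interval from -10.19 to 6.86 (limma adjusted p = 0.888). It was -5 points without control replicate 1 and -4.33 without DM-aKG replicate 3. Omitting control replicate 2 or 3 made it 0, and omitting treated replicate 1 or 2 made it -0.5 or -0.17.

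The oxygen-sensing hydroxylases were thinly measured. Hif1an, whose product hydroxylates an asparagine of hypoxia-inducible factor, had 3 sites, all beyond the 3′ end of the gene (chr19:44562854-44576274, plus strand) by at most 120 bases. They averaged 88%, 89% and 87% in the controls and 90%, 82% and 78.7% with DM-aKG. DM-aKG replicates 2 and 3 were below the controls and replicate 1 above them. This was the greatest difference of the 8 genes, -4.44 points (88.0% ± 1 and 83.6% ± 5.82, SD, n = 3; 95% interval -11.36 to 2.47; limma adjusted p = 0.765). Omitting treated replicate 1 made it -7.67 points, and omitting treated replicate 3 made it -2.

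Egln3 encodes a prolyl hydroxylase of hypoxia-inducible factor and is itself a known target of that factor. Its only complete site, at chr12:54180527, 1546 bases inside the 3′ end of the gene, was at 41%, 42% and 46% in the controls and 44%, 52% and 52% with DM-aKG. The groups overlapped at replicate 1 of DM-aKG, and the site had the lowest mean of the 362 complete sites, 46.2%. The difference was 6.33 points (43.0% ± 2.65 and 49.3% ± 4.62, SD, n = 3). With each library averaged over the positions it had, the difference was -4.03 points, and with each 0 counted as a level -14.2. A value was present at 37.5% (DM-aKG replicate 1) to 87.5% (control replicate 1) of the 8 positions. Both differences thus depend on which positions each library had, and do not show a lower level with DM-aKG. For the complete site the limma adjusted p was 0.773, with at least 1 site per gene. The cytosine 1 base before it was at 48%, 55% and 49% in the controls, and at 55% and 47% in DM-aKG replicates 2 and 3, with no value in replicate 1. These levels lie close to 40%, under which no value is listed, so a lower level at this CpG could not have been seen. The other 6 positions of Egln3 had values in some libraries only.

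P4ha1 encodes the catalytic subunit of collagen prolyl 4-hydroxylase, which stabilises the collagen triple helix. Its 3 sites, 28.9 kb into the span (chr10:59323197-59373304), averaged 85.0%, 89.7% and 89.7% in the controls and 86.7%, 89.7% and 92.0% with DM-aKG. The lowest library was a control, the highest a treated one, and the remaining 4 overlapped. The difference was 1.33 points (95% interval -3.38 to 6.05; limma adjusted p = 0.864), and -0.22 points without control replicate 1. Alkbh5, whose product removes N6-methyladenosine from RNA, had no position within 1000 bases of its span (chr11:60537683-60558512).

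Single sites gave no call either. By limma on untransformed levels, 0 of the 362 sites had an adjusted p under 0.05, as had 0% of all 272327, and the lowest adjusted p among the 362 was 0.655. An unadjusted p under 0.05 was reached by 21 of them (5.80%), 10 higher and 11 lower, and by 14803 (5.44%) of all sites. On log2 odds 407 sites of the table passed, and 0 of them were in these genes. All 3 DM-aKG libraries lay above all controls at 14 sites (3.87%), against 4.63% of all sites, and below them at 16 sites (4.42%), against 2.5%. Of these 16, 7 are in Kdm6b, and 6 are both strands of 1 CpG each in Jmjd1c, Phf2 and Kdm3b. Neighbouring cytosines are not independent, and site counts such as these rest on few genes. Of the 362 sites 153 were higher, 189 lower and 20 equal, with a median of -0.33 points, while 53.3% of all sites were higher and the median was 0.67 points. Of 33 runs in these genes, 3 had all treated libraries higher and 5 lower, against 8.55% and 2.58% of the 32136 runs in the table. None of the 33 had an adjusted p under 0.05 (lowest 0.824, by limma) or an unadjusted p under 0.05, and 0.00311% of all runs passed.

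The sites with the greatest differences among those whose groups did not overlap were in Kdm6b, Kdm2a and Jmjd1c. For Kdm6b a site lay at chr11:69398210, inside Tmem88 and outside the lower end of the Kdm6b span. It was at 100%, 76% and 88% in the controls and 72%, 75% and 58% with DM-aKG. The difference was -19.7 points (limma adjusted p = 0.872). A site at chr11:69407435 inside Kdm6b was at 71%, 55% and 59% in the controls and 79%, 76% and 81% with DM-aKG, 17 points higher (limma adjusted p = 0.811). The cytosine of the opposite strand of that CpG differed by 0.67 points. In Kdm2a, chr19:4324669 was at 93%, 91% and 73% in the controls and at 100% in all 3 treated libraries, and chr19:4353914 was at 100%, 96% and 100% in the controls and 95%, 92% and 85% with DM-aKG. In Jmjd1c, chr10:67103700 was at 100%, 96% and 94% in the controls and 86%, 85% and 84% with DM-aKG, which gave the lowest adjusted p of all 362 sites (0.655). The site chr10:67110779 of Jmjd1c was 4 points higher.

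The remaining sites chosen in this way differed by less than 10 points. In Kdm3b, chr18:34823674 was at 88%, 88% and 86% in the controls and 98%, 90% and 91% with DM-aKG, and chr18:34822400 was at 98%, 97% and 100% and then 95%, 96% and 94%. In Phf2, chr13:48805961 was at 100%, 98% and 98% in the controls and 84%, 97% and 91% with DM-aKG. Of the 30 sites with groups apart, 26 had a complete cytosine 1 base away, on the opposite strand of the CpG. That neighbour differed in the same direction at 13 of the 26 (50%), against 57.9% of 14133 such sites in the table. At 6 of the 26, which form 1 CpG each in Jmjd1c, Phf2 and Kdm3b, both strands had their groups apart in the same direction, lower with DM-aKG. That is 23.1% of the 26, against 844 (5.97%) of the 14133 sites in the table. Each such CpG is counted with both strands, and the 844 include both directions. The 23.1% therefore rests on 1 CpG in each of those genes, too few to read as a difference.

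Among other α-ketoglutarate dioxygenase genes, a list of 50 without the TET genes, 19 lay in the rows used and 12 had at least 3 complete sites. None of the 12 passed (0 of 12, lowest limma adjusted p = 0.764), as had 0% of all spans. With DM-aKG 8 were higher and 4 lower, and 66.4% of all spans were higher. The median difference was 0.86 points, against 0.73 over all spans. P4ha2, which encodes the other main catalytic subunit of collagen prolyl 4-hydroxylase, was at 83.6%, 84.6% and 84.5% in the controls and 87.8%, 88.1% and 90.1% with DM-aKG. All treated libraries were higher, by 4.41 points (95% interval 1.88 to 6.94; limma adjusted p = 0.764). It was the only gene of the 12 with an unadjusted p under 0.05, against 574 of all 9195 spans. Jmjd6, a lysyl hydroxylase of splicing factors, was 1.64 points higher (89.8% ± 1.12 and 91.4% ± 0.502, SD, n = 3), again without overlap. Of the 12 genes 2 were apart upwards and 0 downwards, against 11.3% and 2.53% of all spans. Ogfod3 was at 89.2% ± 2.25 and 91.6% ± 2.42, with overlapping groups. In the other direction Alkbh1 was at 91.7% ± 2.10 and 89.5% ± 3.71, Jmjd8 at 84.4% ± 1.95 and 83.4% ± 0.513, and Hr, a histone demethylase of hair follicles, at 88.6% ± 1.31 and 87.1% ± 3.87, all with overlapping groups. Tet1, the only TET gene in the rows used, was 1.89 points higher (limma adjusted p = 0.764), without overlap. Its highest control (89.28%) lay just under the lowest treated library (89.43%).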

How the data were processed

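The authors deposited 1 table with a percent of methylation per cytosine position in 6 libraries, in whole numbers and without coverage. Per the submitters' processing notes the build was mm10 and CASAVA 1.8 and Novoalign 3.08.02 were used; the methylation caller is not given in the sources used here. Of 813850 deposited rows, numbers 1 to 390208 were used, because in later rows control replicates 1 and 2 no longer correlated with the other 4 libraries (-0.00432 to -0.00137, against 0.598 to 0.770 between any pair before). A 0 was taken as no value. Positions count from 1: of 4524 positions in RefSeq promoter windows, 4521 fell on a C or G when counted so.

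Gene values are means over complete sites in the span plus 1000 bases on each side (GRCm38.p6, at least 3 sites). The test was limma (version 3.58.1, under R 4.3.3), fitted to the log2 odds of all gene spans (offset 0.01) and to the untransformed percent of all sites. Benjamini-Hochberg adjusted p-values under 0.05 were called. They set the group difference against the spread of these 6 libraries within their groups, moderated over all genes or sites. Intervals in points come from limma on untransformed levels. The scripts were tested on simulated data. The named sites are those with the greatest difference per gene and direction among sites whose groups do not overlap; of the other dioxygenases, the 3 genes per direction with the smallest p are named. The genes and lists were chosen with earlier results of these data known. Runs of sites were added after the data were seen.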

Additional observations from a re-analysis of the deposited data

Results flagged for a closer look

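In 1 position of Kdm3b, at chr18:34782194, all 3 DM-aKG libraries had a value (60%, 43% and 100%) and no control had one. It was singled out because a level appeared in treated libraries at a position with no value in the controls, outside the sites compared above. The reverse held at 1 position of Kdm6b, chr11:69399459, with 100%, 50% and 100% in the controls and no value with DM-aKG. Each is 0.210% of the 477 positions of these genes, against 0.314% and 0.459% of all rows used, and a level under 40% cannot be told apart from a missing call.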

How the results depend on the processing

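No gene of the set passed the threshold under any alternative run (lowest adjusted p 0.675, limma). Over all spans, 0 genes passed, 1 on untransformed percent, 1 with an offset of 0.05, 1 with at least 1 site, 1 with each library averaged over the positions it had and 7 with each 0 counted as a level. Over all sites 0 passed, against 407 on log2 odds, 2379 with each 0 as a level, 14 with at least 2 values per group, 1 for runs of sites, and 0 to 9 with single libraries left out. None of these was in the genes described. Differences changed sign as follows. With each 0 as a level Kdm5b was at 9.83 points, Kdm6b at 0.42, Jmjd1c at 0.94 and Egln3 at -14.2. With each library over its own positions Kdm5b was at 2.72 and Egln3 at -4.03 (6.33 at its 1 complete site). In both settings the result also depends on which positions had a value in each library. With equalised library means Kdm3b was at -0.42 and Phf2 at -0.66. Leaving out single libraries gave -2.65 to 1.04 points for Kdm2a, -0.40 to 1.48 for Kdm3b, -0.39 to 0.98 for Phf2 and -0.22 to 2.72 for P4ha1. It kept the sign of Kdm6b (-0.56 to -0.22), Jmjd1c (-1.75 to -0.41) and Hif1an (-7.67 to -2), and gave -5 to 0 for Kdm5b. In all, 15 of 139 values changed direction. With the replicate block 0 genes and 0 sites passed and no direction changed. Same-numbered libraries are not tied by any label, and the correlations of their deviations were 0.0652, -0.0276 and 0.0307. The unknown read depth limits every value, and genes with 3 to 5 sites had intervals of 5.88 points on either side in the median, against 2.72 with 50 or more.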
